A study of Mus musculus with 6 samples.

Results

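The genes described here encode the standard proteasome and the proteins that cap it. They were taken by symbol: every listed gene whose symbol starts with Psma or Psmb (the core particle), Psmc or Psmd (the regulatory cap) or Psme (the activators), without the immunoproteasome subunits Psmb8, Psmb9 and Psmb10 and without the 2 listed symbols that carry a pseudogene ending. This gave 42 of the 26771 genes listed in any library: 16 of the core, 21 of the cap and 5 activators. The rule reads symbols only. One of the 42, Psmc3ip, is caught by its name only: it encodes a cofactor of DNA strand exchange in meiotic recombination, known for its contact with the product of Psmc3, and is no proteasome subunit. It is kept in the counts and named apart.

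Messenger RNA was sequenced from γδT17 cells of C57BL/6 mice, the interleukin-17 producers among γδ T cells. Every animal carried the TCRβ-/- genotype, which leaves a mouse without αβ T cells. The Induced group consists of cells grown from splenocytes under a protocol built on IL-1β and IL-23, harvested on day 8 and purified with a magnetic pan T cell kit. The Initial group was sorted straight from spleen with no culture; its gate is not described in the material used here. Each group has 3 libraries, from mice labelled A, B and C in both groups; the culture and the way of purification changed together, so their parts in any difference cannot be told apart. Age and sex of the mice are not described in that material.

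The proteasome degrades proteins that carry ubiquitin chains. Its core is a barrel of stacked rings: outer α rings, which gate the entrance, enclose β rings, in which Psmb5, Psmb6 and Psmb7 hold the cutting sites. The cap sits on the α ring. Its base carries the Psmc ATPases, which unfold a substrate and thread it inward, and its lid removes the ubiquitin chain. Psme activators bind the same end of the barrel and open it without ATP. In cells exposed to interferon-γ, and at steady state in many immune cells, Psmb8, Psmb9 and Psmb10 take the places of the cutting subunits and change which peptides are released for presentation on MHC class I.

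Values are FPKM, fragment numbers scaled by transcript length and library size, so levels can be set side by side between genes. Depth, estimated from the spacing of low values, was about 22600000 to 26300000 fragments in Induced libraries and 19400000 to 23600000 in Initial libraries. At that depth counting alone gave tested proteasome genes a coefficient of variation of 0.973 to 7.51%, apart from Psme4 with 7.97% and Psmc3ip with 12.8%. Fold changes are differences of log2(FPKM + 1), Induced minus Initial, with their standard error (SE). Adjusted p-values come from limma with Benjamini-Hochberg adjustment over the 11265 genes tested, and a gene is called changed at an adjusted p under 0.05.

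Markers of other cells moved with the groups. Summed FPKM of 12 macrophage genes was 3.99 to 6.17 in Induced libraries and 608 to 1155 in Initial libraries, with 12 of 12 lower in Induced and Mertk without a row there, which was taken as 0. For 12 B cell genes it was 147 to 239 in Induced and 1740 to 2027 in Initial libraries, with 10 of the 11 tested lower and Blk higher. For 8 red cell genes it was 1.19 to 1.64 in Induced and 1221 to 1746 in Initial libraries, with 7 of 7 tested lower and Alas2 likewise without a row in Induced. Of 8 neutrophil genes none was tested, and their sum was 0.865 to 4.84 in Induced and 0.0850 to 15.4 in Initial libraries. The γδ T cell genes (Cd3d, Cd3e, Cd3g, Cd247 and Trdc) summed to 1378 to 1502 in Induced and 1560 to 1696 in Initial libraries, with Cd3d and Cd3e lower. All 10 cell division genes listed were higher in Induced cells, with sums of 1020 to 1174 in Induced and 47.5 to 61.3 in Initial libraries. In such bulk libraries fewer cells of a type and less RNA per cell cannot be told apart, and the part of these cells or of cell division in the proteasome results was not tested.

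Promoters of 5 members are shown, for the largest changes and for a contrast between cutting subunits. Psmc3ip, Psma5 and Psme2 had the largest increases of all members. Psmb5 and Psmb6, chosen after their values were seen, are cutting subunits of which the first rose and the second did not pass. Both of their promoters hold the core of the antioxidant response element, the kind of site that Nfe2l1 and Nfe2l2 bind. Each window runs from 250 bases before to 50 after the RefSeq start on GRCm38.p6, read 5′ to 3′ on the gene's strand. Capitals mark TGACNNNGC in Psmb5 and Psmb6 and the CCAAT box, the site of NF-Y, in Psmc3ip. The windows lie at chr11:101095386-101095685 (minus strand), chr3:108256676-108256975 (plus strand), chr14:55591052-55591351 (minus strand, 1 of 2 starts in the table), chr14:54617946-54618245 (minus strand) and chr11:70525107-70525406 (plus strand), and each covers the first bases of its gene.
Psmc3ip: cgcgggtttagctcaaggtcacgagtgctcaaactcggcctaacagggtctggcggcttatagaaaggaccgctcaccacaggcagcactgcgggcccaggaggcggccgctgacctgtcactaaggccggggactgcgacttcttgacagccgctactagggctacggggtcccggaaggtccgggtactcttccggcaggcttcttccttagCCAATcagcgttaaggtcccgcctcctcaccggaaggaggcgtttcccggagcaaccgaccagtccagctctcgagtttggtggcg
Psma5: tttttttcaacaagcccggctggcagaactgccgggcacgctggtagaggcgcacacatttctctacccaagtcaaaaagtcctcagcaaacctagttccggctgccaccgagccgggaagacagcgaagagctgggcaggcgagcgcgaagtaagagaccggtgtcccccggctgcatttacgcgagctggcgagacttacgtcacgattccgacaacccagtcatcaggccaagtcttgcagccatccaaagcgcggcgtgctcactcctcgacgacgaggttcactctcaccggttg
Psme2: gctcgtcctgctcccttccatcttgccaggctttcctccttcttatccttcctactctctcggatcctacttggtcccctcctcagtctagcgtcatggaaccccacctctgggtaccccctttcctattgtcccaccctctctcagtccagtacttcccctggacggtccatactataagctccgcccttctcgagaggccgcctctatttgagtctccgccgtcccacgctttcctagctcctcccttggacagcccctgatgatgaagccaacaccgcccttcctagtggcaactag
Psmb5: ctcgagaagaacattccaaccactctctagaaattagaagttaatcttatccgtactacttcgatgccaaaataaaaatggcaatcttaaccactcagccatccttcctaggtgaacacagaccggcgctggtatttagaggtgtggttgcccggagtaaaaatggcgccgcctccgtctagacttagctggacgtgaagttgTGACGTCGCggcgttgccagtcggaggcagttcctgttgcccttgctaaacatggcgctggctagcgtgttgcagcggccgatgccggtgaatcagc
Psmb6: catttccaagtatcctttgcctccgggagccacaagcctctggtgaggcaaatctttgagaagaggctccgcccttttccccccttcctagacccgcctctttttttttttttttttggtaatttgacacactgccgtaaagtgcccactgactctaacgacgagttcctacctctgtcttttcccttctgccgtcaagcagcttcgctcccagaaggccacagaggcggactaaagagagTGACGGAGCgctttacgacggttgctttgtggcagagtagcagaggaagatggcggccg

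Among all members, 35 were found in the promoter table, with 38 promoters. TGACNNNGC, searched on both strands, occurred in 6 of these 38 (15.8%), against 12.4% of all 32851 promoters in the table. CCAAT, searched likewise, occurred in 14 of 38 (36.8%), against 37.4% of all promoters. The members with TGACNNNGC were Psmb5, Psmb6, Psmc6, Psmd9, Psmd12 and Psme4, of which 3 of 6 rose. Of the tested members with a promoter but without these letters, 23 of 28 rose. For CCAAT the split tilted the other way: 11 of 13 tested members with it rose, and 15 of 21 without it. These matches are descriptions of the letters in the window and say nothing of binding.

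Proteasome genes took a larger share of the messenger RNA in Induced than in Initial cells. Of the 42 members 40 were tested, each at 1 FPKM or more in all 6 libraries, and 32 of the 40 rose, against 37.3% of all genes tested. None fell, against 33.1% of all genes tested; limma called 0 lower at an unadjusted p under 0.05 as well, and 0 with the ordinary moderated test. The same 32 genes were higher in every Induced library than in any Initial library, a pattern seen in 40.0% of all genes tested. The median log2 fold change was 0.39 over the tested members, with a range of -0.04 to 1.81, and 0.03 over all genes tested.

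The increases were mostly modest. FPKM ratios of Induced to Initial means ran from 1.18 to 4.52 among the 32, with 9 at 1.5-fold or more and only Psmc3ip and Psma5 at 2-fold or more. All 42 together summed to 5410, 5390 and 5442 FPKM in the Induced libraries of mice A, B and C, against 3910, 3730 and 4226 FPKM in their Initial libraries. That is 1.20 to 1.21% of all FPKM in Induced and 0.862 to 0.921% in Initial libraries, without overlap. Core genes summed to 2386 ± 10.8 FPKM in Induced and 1719 ± 139 in Initial libraries (SD, n = 3 each). Cap genes summed to 2092 ± 17.6 FPKM in Induced and 1594 ± 62.5 in Initial libraries, and activators to 936 ± 3.38 in Induced and 643 ± 51.5 in Initial libraries.

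**Figure D1:**
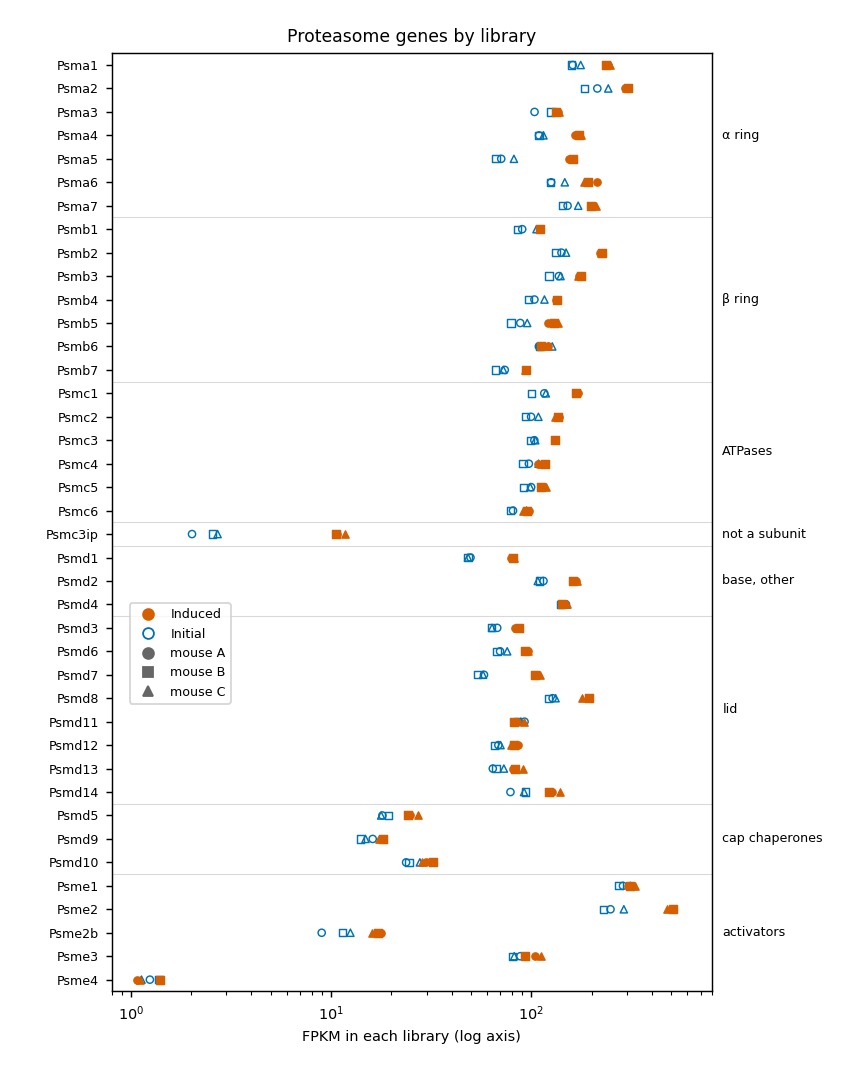
FPKM of the 40 tested proteasome genes in each library on a log axis, grouped by role; filled orange symbols are Induced and open blue symbols Initial libraries, and the symbol's shape gives the mouse. Psma5, Psmd7 and Psme2 show wide gaps between the groups, while Psma3, Psmb6, Psmc4, Psmc6, Psmd4, Psmd11, Psme1 and Psme4 overlap.

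These are abundant transcripts in both states. Their median percentile among tested genes was 94.2 in Induced and 92.2 in Initial cells, and 33 of the 42 exceeded 50 FPKM in every library. Their rank order was largely kept, with a Spearman correlation of 0.94 between group means across the 40 genes, given as a description since genes share libraries. Libraries of the Induced group lay closer together: the median coefficient of variation over members was 3.19% within Induced and 6.97% within Initial. Among Initial libraries the highest value came from mouse C for 28 of the 40. That library had the lowest macrophage sum, the highest sum of γδ T cell genes and the largest total FPKM. The totals were 458818 in Initial C, against 442090 in Initial A and 432626 in Initial B. As a share of all FPKM, the members stayed highest in Initial C (0.921%). Cap genes did not, with 0.3607% in Initial C and 0.3613% in Initial A. What sets Initial library C apart was not tested.

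Of the 7 tested α ring genes, which form the gate of the core, 6 rose, with a median log2 fold change of 0.55. Psma5 had the largest increase of any core gene. In the order of mice A, B and C it measured 154, 161 and 160.3 FPKM in Induced libraries, against 70.7, 66.5 and 81.8 FPKM in Initial libraries, the order used throughout. The groups did not overlap, and Psma5 rose by 1.11 on the log2 scale (SE 0.084, adjusted p = 1.08e-05). Psma5 lies on chromosome 3 at 108256926 to 108279974 (GRCm38, plus strand), and 54.5% of its 50-base words also occur in other annotated genes, among them the pseudogene Gm8394, which reached at most 0.0519 FPKM in a library.

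Psma4, of the same ring, followed with 166, 174 and 176 FPKM in Induced and 109, 109 and 115 FPKM in Initial libraries. Every Induced value exceeded every Initial value, and the gene rose by 0.62 on the log2 scale (SE 0.060, adjusted p = 4.13e-05). Psma4 shares 25.6% of its 50-base words with other genes. The other α genes that rose were Psma6, Psma1, Psma2 and Psma7, with log2 fold changes of 0.56, 0.55, 0.49 and 0.39. Psma3 alone did not pass among the tested α genes. Its values of 136, 132 and 138 FPKM in Induced libraries overlapped those of 104, 125 and 133 FPKM in Initial libraries, with a log2 fold change of 0.18 and an adjusted p of 0.129. It was called higher without Initial library C (log2 fold change 0.25, adjusted p = 0.0451), and 22.0% of its 50-base words are shared with other genes.

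Because α ring subunits enter the particle in equal numbers, their messenger levels can be set side by side. In the α ring Psma2 was highest in all 6 libraries, at a mean of 299 FPKM in Induced and 214 FPKM in Initial cells. The lowest was Psma3 in Induced cells, with 135 FPKM, and Psma5 in Initial cells, with 73.0 FPKM. Psma3 and Psma5 share 22.0% and 54.5% of their 50-base words with other genes, against 3.53% for Psma2. Whether this lowers their values was not tested, so the spread within the ring is uncertain. The ratio of highest to lowest mean was 2.2 in Induced and 2.92 in Initial cells. In each single Induced library this ratio, 2.14 to 2.31, was below the 2.78 to 3.02 of the Initial libraries. The β ring went the other way, with 2.38 in Induced and 1.99 in Initial cells between Psmb2, the highest, and Psmb7, the lowest. That ratio leaves out the immunoproteasome subunits, which can fill the places of Psmb5, Psmb6 and Psmb7. Psmb10, which can replace Psmb7, had means of 210 FPKM in Induced and 128.5 FPKM in Initial cells.

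In the β ring 6 of 7 tested genes rose, with a median log2 fold change of 0.38. Psmb2, a structural subunit without a cutting site, had the largest increase among them. It measured 221, 224 and 222 FPKM in Induced and 141, 133 and 149 FPKM in Initial libraries, without overlap, and rose by 0.65 on the log2 scale (SE 0.064, adjusted p = 4.73e-05). The structural subunits Psmb3 and Psmb4 rose by 0.38 and 0.34, and Psmb3 shares 10.1% of its 50-base words with other genes. Psmb1 rose by 0.24 (adjusted p = 0.0373), with 111, 110.0 and 110.1 FPKM in Induced and 90.0, 84.9 and 106 FPKM in Initial libraries. Psmb1 held the smallest called ratio, 1.18, and lost its call under TMM-like factors (0.17, adjusted p = 0.0988). The call was also lost without the filter (adjusted p = 0.0736) and with the ordinary moderated test (adjusted p = 0.0574). Fits that left out a library lost it too, with limma's adjusted p up to 0.113, except the fit without Initial library C.

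The 3 cutting subunits did not move alike. Psmb5, which cuts after hydrophobic residues, measured 121, 130.1 and 136 FPKM in Induced libraries, against 88.0, 79.1 and 95.4 FPKM in Initial libraries. Psmb7, which cuts after basic residues, measured 93.5, 93.7 and 92.8 FPKM in Induced libraries, against 73.7, 66.2 and 72.5 FPKM in Initial libraries. Both pairs of groups were apart, and the log2 fold changes were 0.56 for Psmb5 (SE 0.085, adjusted p = 0.000556) and 0.40 for Psmb7 (SE 0.063, adjusted p = 0.000744). Psmb6, which cuts after acidic residues, measured 121, 111 and 122 FPKM in Induced libraries, against 109, 109.9 and 127 FPKM in Initial libraries. These overlapped, and its log2 fold change of 0.04 (95% interval -0.15 to 0.22, adjusted p = 0.698) did not pass. Its sign was negative under scaling factors of the TMM kind (-0.03), and it was called higher when libraries were scaled to the CD3 chains and Trdc (0.26, adjusted p = 0.00843).

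Copies and neighbours limit 2 of these. Psmb5 (chromosome 14, 54614119 to 54618022, minus strand) shares 57.1% of its 50-base words with other genes, chiefly the pseudogene Gm3375, which reached at most 0.625 FPKM. Psmb7 (chromosome 2, 38588036 to 38644087, minus strand) overlaps Nek6 on the opposite strand, whose mean was 12.9 FPKM in Induced and 0.915 FPKM in Initial cells. The counting is not stated to use strand, so reads of such overlapping pairs cannot be told apart.

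Each cutting subunit has an immune partner that can replace it. All 3 partners rose. Psmb8 measured 777, 796 and 763 FPKM in Induced and 315, 303 and 338 FPKM in Initial libraries. Psmb9 measured 205, 203 and 185 FPKM in Induced and 68.3, 77.6 and 84.6 FPKM in Initial libraries. For Psmb10 the values were 208, 224 and 197 FPKM in Induced and 126, 116 and 143 FPKM in Initial libraries. None of these overlapped between groups, and the log2 fold changes were 1.29, 1.36 and 0.71. Psmb9 overlaps Tap1 on the opposite strand, which had a mean of 324 FPKM in Induced and 108 FPKM in Initial cells. The ratio of partner to standard subunit within a library does not depend on how libraries are scaled.

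The ratio of immune to standard partner was compared at each of the 3 sites. Psmb8 over Psmb5 was 6.41, 6.12 and 5.62 in Induced libraries, against 3.58, 3.83 and 3.54 in Initial libraries. Psmb9 over Psmb6 was 1.69, 1.82 and 1.52 in Induced libraries, against 0.626, 0.706 and 0.665 in Initial libraries. Psmb10 over Psmb7 was 2.23, 2.39 and 2.12 in Induced libraries, against 1.71, 1.75 and 1.98 in Initial libraries. All Induced ratios exceeded all Initial ratios at each site, and of the 3 ratios Psmb9 over Psmb6 was above 1 in Induced and below 1 in Initial libraries. How often ratios of other gene pairs separate in this way was not computed. Among all single genes tested, 40.0% were higher in every Induced library than in any Initial library. With Psme2 over Psme1, given further on, 4 ratios were compared, and each gave p = 0.1 in a two-sided exact permutation test, before and after Benjamini-Hochberg adjustment. This is the smallest value that 3 against 3 libraries allow, so no ratio could reach 0.05.

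**Figure D2:**
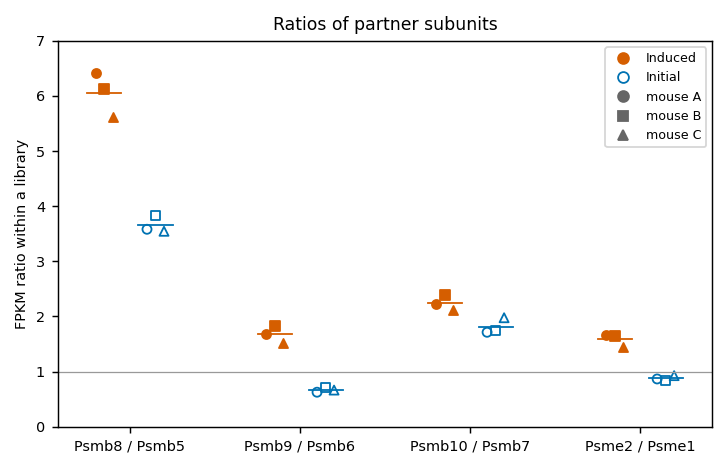
Ratio of FPKM within each library of immune to standard partner, and of Psme2 to Psme1 of the activator ring. Induced libraries (filled orange) stand left of Initial libraries (open blue), with mouse by symbol shape and the group mean as a bar. The grey line marks equal levels. Induced ratios lie above Initial ratios in all 4 pairs, with means of 6.05 and 3.65 for Psmb8 over Psmb5.

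The tissue-restricted core genes were hardly detected; a 0 here stands for a gene without a row in that library's table. Psma8, the α subunit of the testis proteasome, was at 0, 0.0327 and 0 FPKM in Induced and 0.285, 0.0726 and 0.292 FPKM in Initial libraries. Psmb11, the subunit of the thymoproteasome of cortical thymic epithelium, was at 0, 0 and 0 FPKM in Induced and 0, 0.0349 and 0.0105 FPKM in Initial libraries. Neither reached 1 FPKM, so neither was tested. Without the filter, Psma8 was called lower by 0.26 on the log2 scale (SE 0.080, adjusted p = 0.0434), at a level where few fragments decide.

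In the cap, 4 of the 6 ATPases that thread the substrate rose, with a median log2 fold change of 0.30. Psmc1 rose most of them. It measured 170.4, 167 and 168 FPKM in Induced and 116, 101 and 118 FPKM in Initial libraries, without overlap, and rose by 0.59 (SE 0.076, adjusted p = 0.000203). Psmc1 shares 17.6% of its 50-base words with other genes. Psmc2, Psmc3 and Psmc5 rose by 0.42, 0.35 and 0.25. Psmc3 measured 131 ± 0.127 FPKM in Induced and 102 ± 3.01 FPKM in Initial cells (SD, n = 3 each). Counting alone was estimated to give Psmc3 a coefficient of variation of 1.69%. The Induced spread lay below that, so it is not read as a trait of the gene. Psmc3 overlaps Slc39a13 on the opposite strand, which had a mean of 5.32 FPKM in Induced and 4.98 FPKM in Initial cells. Psmc4 and Psmc6 had log2 fold changes of 0.19 (adjusted p = 0.0662) and 0.16 (adjusted p = 0.118), with groups that overlapped. Both were called higher without Initial library C, with adjusted p of 0.0154 and 0.0162 from limma.

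The ATPases form one ring, and their levels lay further apart in Induced than in Initial cells. The highest, Psmc1, exceeded the lowest, Psmc6, by a ratio of 1.78 in Induced and 1.32 in Initial means. The single libraries gave 1.74 to 1.85 in Induced and 1.25 to 1.43 in Initial cells.

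The other base subunits fell into 2 kinds. Psmd1 and Psmd2, the large scaffolds of the base, rose. Psmd1 measured 79.6, 81.0 and 81.9 FPKM in Induced and 49.7, 48.3 and 48.3 FPKM in Initial libraries, and rose by 0.72 on the log2 scale (SE 0.055, adjusted p = 1.19e-05). Psmd2 measured 167, 162 and 169 FPKM in Induced and 115, 109 and 108 FPKM in Initial libraries, rose by 0.58 (adjusted p = 5.75e-05) and shares 26.1% of its 50-base words with other genes. Both were apart between groups. Psmd1 had 80.9 ± 1.19 FPKM in Induced and 48.7 ± 0.795 FPKM in Initial cells (SD, n = 3 each). Counting alone was estimated to give Psmd1 a coefficient of variation of 1.85%. The spread in either group lay below that, so it is not read as a trait of the gene. Psmd4, a receptor for ubiquitin chains, measured 145, 142 and 151 FPKM in Induced and 149, 140.3 and 150.1 FPKM in Initial libraries. These overlapped almost fully, and the 95% interval of its log2 fold change was -0.14 to 0.14 (adjusted p = 0.979). Scaled to the CD3 chains and Trdc, Psmd4 was called higher (0.22, adjusted p = 0.0169).

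Of the 8 lid genes 7 rose, with a median log2 fold change of 0.40. Psmd7, the partner on which the deubiquitinase Psmd14 is mounted, had the largest increase of any true cap subunit. It measured 106, 104 and 111 FPKM in Induced and 58.0, 53.7 and 57.4 FPKM in Initial libraries. The groups were far apart, and the gene rose by 0.91 (SE 0.062, adjusted p = 5.96e-06). In Induced cells Psmd12 or Psmd13 was the lowest lid gene in a library, while in Initial cells Psmd7 was the lowest in each.

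Psmd14, which cuts the ubiquitin chain off the substrate, measured 127, 123 and 138 FPKM in Induced and 78.6, 93.7 and 92.0 FPKM in Initial libraries, and rose by 0.55 (adjusted p = 0.000658). Psmd8, the highest lid gene in each library, measured 193, 194 and 179 FPKM in Induced and 128, 122 and 132 FPKM in Initial libraries and rose by 0.56. Psmd6, Psmd3, Psmd13 and Psmd12 rose by 0.42, 0.38, 0.32 and 0.27. Psmd13 overlaps Sirt3 on the opposite strand, which had a mean of 13.0 FPKM in Induced and 10.6 FPKM in Initial cells. The exception among the lid genes was Psmd11, with 85.2, 82.3 and 91.6 FPKM in Induced and 92.5, 85.5 and 88.6 FPKM in Initial libraries. It overlapped between groups, and its log2 fold change was -0.04 (95% interval -0.20 to 0.11, adjusted p = 0.595), which turned to 0.18 when libraries were scaled to the CD3 chains and Trdc (adjusted p = 0.0642).

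The 3 chaperones that build the base, Psmd5, Psmd9 and Psmd10, stood lower than the subunits they assemble and all rose. Psmd5 measured 24.8, 24.1 and 27.2 FPKM in Induced and 18.0, 19.3 and 17.8 FPKM in Initial libraries, and rose by 0.44 (adjusted p = 0.00098). Psmd10 rose by 0.25 (adjusted p = 0.0281) and Psmd9 by 0.23 (adjusted p = 0.025). Both had separate groups, but only by a narrow margin, since the lowest Induced values were 28.6 and 17.3 FPKM and the highest Initial values 27.7 and 16.1 FPKM. Under TMM-like factors both missed the threshold, with adjusted p of 0.0924 and 0.102 from limma.

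Psmc3ip had the largest change of the 42. It measured 10.7, 10.5 and 11.7 FPKM in Induced libraries, against 2.02, 2.55 and 2.71 FPKM in Initial libraries, a ratio of means of 4.52. The groups were far apart, and the gene rose by 1.81 (SE 0.11, adjusted p = 3.36e-06). It lies on chromosome 11 at 101091823 to 101095436 (GRCm38, minus strand) and overlaps Mlx on the opposite strand, which was more abundant, with 30.4 FPKM in Induced and 26.7 FPKM in Initial cells. Without it, 16 of 20 cap genes and 31 of 39 members rose, and the median of the members was 0.39.

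**Figure D3:**
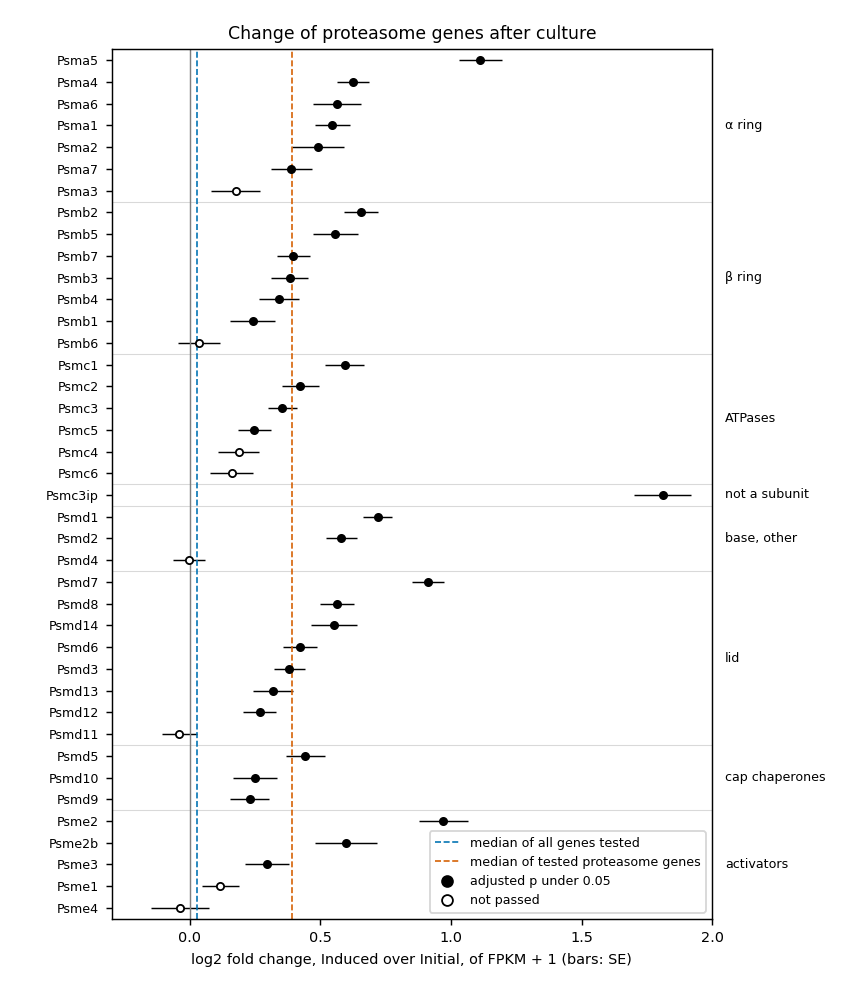
Log2 fold change of FPKM + 1, Induced over Initial, for the 40 tested genes by role, with bars of 1 SE; filled points passed an adjusted p of 0.05 and open points did not, and dashed lines give the medians of all tested genes (0.03) and of the members (0.39). No filled point lies left of 0; with scaling to the CD3 chains and Trdc the open points of Psmd4, Psmd11 and Psme4 move to the right of 0, and with TMM-like factors that of Psmb6 moves left of it.

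Of the 5 activators 3 rose, with a median log2 fold change of 0.30. Psme1 and Psme2 encode the subunits of one mixed ring, known as inducible by interferon-γ. Psme2, the most abundant member in Induced cells, measured 511, 512 and 475 FPKM in Induced libraries, against 249, 229 and 289.8 FPKM in Initial libraries. It rose by 0.97 (SE 0.094, adjusted p = 4.37e-05), without overlap, and shares 59.3% of its 50-base words with other genes, chiefly Psme2b. Psme1 measured 305, 312 and 329 FPKM in Induced libraries, against 287, 274 and 313 FPKM in Initial libraries. These overlapped, since Initial C exceeded Induced A and B, and the log2 fold change of 0.12 (95% interval -0.05 to 0.28, adjusted p = 0.178) did not pass.

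The ratio within this ring was compared in the same way. Psme2 over Psme1 was 1.67, 1.64 and 1.45 in Induced libraries, against 0.867, 0.834 and 0.927 in Initial libraries, so Psme2 was the higher of the pair in all 3 Induced libraries and Psme1 in all 3 Initial libraries. The exact permutation p was 0.1, the smallest possible here. The genes lie 5912 bases apart on chromosome 14, Psme1 at 55578123 to 55581529 on the plus strand and Psme2 at 55587441 to 55591113 on the minus strand. Psme1 overlaps Emc9 on the opposite strand, at 6.25 FPKM in Induced and 7.50 FPKM in Initial cells.

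Psme2b, a copy of Psme2 on chromosome 11 within a single exon, measured 17.7, 17.2 and 15.9 FPKM in Induced and 8.97, 11.4 and 12.5 FPKM in Initial libraries and was called higher by 0.60 (adjusted p = 0.00229). Of its 50-base words 69.3% also occur in other genes, chiefly Psme2, so its value is uncertain. Psme2b also overlaps 9930111J21Rik1 on the same strand, which had a mean of 25.3 FPKM in Induced and 18.9 FPKM in Initial cells. Psme3, whose ring lies mainly in the nucleus, measured 105, 92.7 and 112 FPKM in Induced and 88.1, 80.8 and 82.1 FPKM in Initial libraries. It rose by 0.30 (SE 0.083, adjusted p = 0.0129), with the lowest Induced above the highest Initial value. Psme4, a large single-chain activator known from DNA repair and from sperm formation, was near the lower limit of the tested range, with 1.07, 1.40 and 1.12 FPKM in Induced and 1.24, 1.38 and 1.13 FPKM in Initial libraries. These overlapped (log2 fold change -0.04, 95% interval -0.30 to 0.22, adjusted p = 0.774), and the sign turned under quantile normalization (0.26, adjusted p = 0.0904) and under scaling to the CD3 chains and Trdc (0.09).

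The 3 lists of genes that act with the proteasome are given beside the 37.3% of all tested genes called higher and the 33.1% called lower. The first, the assembly list, holds genes for assembly, for further subunits and for other proteins that act with the proteasome, such as Psmf1, Usp14 and Akirin2. Of its 14 tested genes 8 rose and 5 fell, with a median log2 fold change of 0.26. Scaling to the CD3 chains and Trdc gave 9 higher and 0 lower, against 47.8% higher and 23.7% lower over all genes. No called gene of the related lists changed sign under any of the 4 scalings. Psmg3 and Psmg2, chaperones of α ring assembly, rose by 0.77 and 0.71. Psmg1, which pairs with Psmg2, instead had 15.0, 12.7 and 18.6 FPKM in Induced and 20.8, 21.2 and 24.7 FPKM in Initial libraries and a log2 fold change of -0.51 (adjusted p = 0.0106). Adrm1, a ubiquitin receptor that docks on Psmd1, had 85.9, 87.3 and 96.4 FPKM in Induced and 115, 106 and 118 FPKM in Initial libraries. Its log2 fold change was -0.32 (adjusted p = 0.00446). Neither Psmg1 nor Adrm1 overlapped between groups, so these partners moved opposite to Psmg2 and Psmd1.

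The next list holds transcription factors of the subunit genes, their partners and genes that control or process them. Of its 12 genes 6 rose, 3 fell and 3 did not pass, with a median of 0.10. Nfe2l1, the factor known to raise subunit transcription when proteasomes are blocked, measured 15.0, 14.8 and 14.2 FPKM in Induced and 15.1, 15.0 and 13.1 FPKM in Initial libraries. These overlapped, and the log2 fold change was 0.03 (adjusted p = 0.788). Keap1, which holds Nfe2l2 for degradation, and Mafg, a small Maf partner of both factors, rose by 0.85 and 0.62. The other small Maf genes had the largest falls: Maff with 0.243, 0.137 and 0.228 FPKM in Induced and 10.4, 8.83 and 10.7 FPKM in Initial libraries (log2 fold change -3.19), and Mafk with 15.8, 16.2 and 18.1 FPKM in Induced and 93.4, 101 and 109 FPKM in Initial libraries (-2.53). Nfe2l2 also fell (-0.55, adjusted p = 0.00182).

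Of 19 tested genes for ubiquitin and its shuttles 4 rose, 5 fell and 10 did not pass, with a median of -0.06, so neither share exceeded that of all tested genes. With scaling to the CD3 chains and Trdc the median turned to 0.16, with 7 higher and 3 lower. Over all genes tested that scaling gave 47.8% higher, 23.7% lower and a median of 0.23. The ubiquitin-activating enzymes Uba6 and Uba1 rose by 0.62 and 0.42. Ubb, which encodes a ubiquitin precursor and was chosen after its values were seen, had 574, 583 and 588 FPKM in Induced and 991, 940.0 and 957 FPKM in Initial libraries. These did not overlap, and the log2 fold change was -0.73 (adjusted p = 1.63e-05). Zfand2a, a stress-induced gene, had the largest fall of the list (-2.17, adjusted p = 3.93e-06). Ddi2, which did not pass, is counted in both of the last lists.

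**Figure D4:**
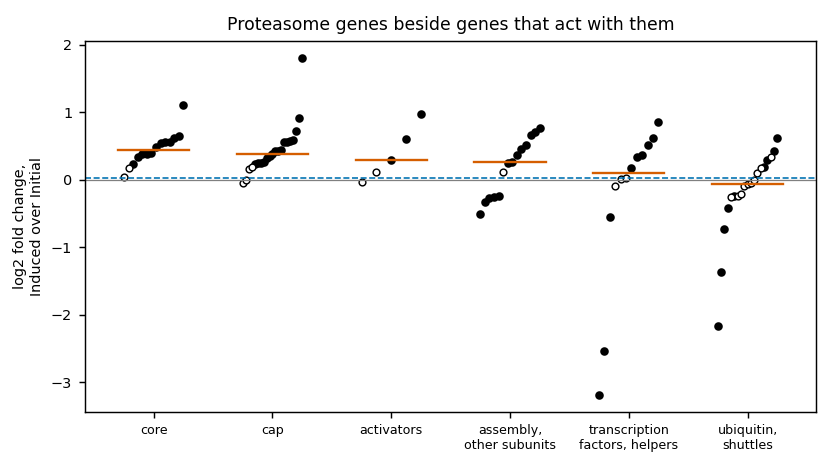
Log2 fold change, Induced over Initial, of each tested gene in the core, the cap, the activators and 3 lists of genes that act with them; filled points passed an adjusted p of 0.05, orange bars give each list's median and the dashed blue line the median of all tested genes. Called points of the core, cap and activators lie above 0, while each of the other lists has called points on both sides as deposited; scaled to the CD3 chains and Trdc, the assembly list has 0 called points below 0.

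Positions did not gather the members into 1 place: they lie on 16 chromosomes, with 10 of 42 on chromosome 11 and 6 on chromosome 14. Psmb5 and Psmb11, 3411 bases apart, and Psme1 and Psme2 are the closest pairs. In each of these pairs the members differed, with Psmb11 near 0 beside an abundant Psmb5, and Psme1 short of the threshold beside a raised Psme2.

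Scaling moved the count but not the direction of the called genes. TMM-like factors gave 29 of 40 higher and 0 lower, against 34.0% higher and 36.7% lower over all genes tested. Scaling to the CD3 chains and Trdc gave 38 of 40 higher and 0 lower, against 47.8% and 23.7% over all genes, and with that second scaling the median of all genes was 0.23 and that of the members 0.62. Over all genes, 52.9% of calls were higher in Induced as deposited and 66.8% after that scaling.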

How the data were processed

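Per the file headers, each deposited table gives FPKM per gene for 1 library. Per the labels' protocols, the authors used the VAHTS mRNA-seq v2 kit and computed FPKM with Cuffdiff. HISAT2 2.0.5, CASAVA, Cuffdiff 1.3.0 and 2.2.1 and the build mm9 are named, per the submitters' processing notes. Of 26669 identifiers matched to GENCODE genes, 90.7% had GRCm38 spans within the deposited loci, so positions are on GRCm38. Whether counting used strand is not stated. A gene without a row was set to 0, though it may lack an estimate.

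Genes at FPKM 1 or more in at least 3 libraries were tested on log2(FPKM + 1), where changes of low genes are understated, with limma 3.58.1 in R 4.3.3 (trend, robust, two-sided, no replicate block), and Benjamini-Hochberg adjusted. Depth was the value that best fitted steps of 1 fragment in low values. At that best fit 44.6 to 49.2% of values lay within 0.15 of whole. A depth fixed beforehand would give 30% by chance, and the share for a best fit was not estimated. The depth is rough. With the length of each gene's longest annotated transcript and its library of fewest fragments, it sets the counting precision given. Where shorter transcripts prevail, fragment numbers are overstated and the counting variation is understated. Shared sequence was the share of 50-base words of the longest transcript found in other genes' transcripts. Python 3.11.15, pandas 2.3.3, scipy 1.17.1 and matplotlib 3.10.9 were used.

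Groups and mice come from sample titles. The titles name the same mice in both groups, so the letters pair libraries; deviations of the same mouse correlated at 0.0393, 0.0307 and 0.131, those of different mice at -0.132 to 0.0988. Alternatives were pseudocounts of 0.1 and 5, no filter, FPKM 5, 4 scalings, an ordinary moderated test, the mouse as a block, and fits without each library in turn.

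Named genes are the 3 largest called changes in core and in cap, all activators, the cutting and tissue-restricted subunits, Psmc3ip, members whose call changed, and 2 largest called changes each way per related list. The other members were named beyond the rule to account for all. Of the genes the rule takes, 1 is not reported here. Members and lists were chosen with earlier results of these data known.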

Additional observations from a re-analysis of the deposited data

How the results depend on the processing

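Of the 32 genes called higher, 29 kept the call under all 10 alternatives and all 6 fits that left out a library; Psmb1, Psmd9 and Psmd10 lost it in some of both. The number called higher was 29 to 38 over the alternatives and 29 to 34 over the fits that left out a library, and with the mouse as a replicate block it stayed at 32, with no member's call changed. The number called lower was 0 throughout, except 1 without the filter (Psma8, log2 fold change -0.26), where 42 genes were tested. Scaling to the CD3 chains and Trdc added calls for Psma3, Psmb6, Psmc4, Psmc6, Psme1 and Psmd4, a common sum added Psmc4, and quantile normalization added Psme1. Leaving out Initial library C added Psma3, Psmc4 and Psmc6. Signs turned among genes that did not pass: Psmb6 to -0.0325 with TMM-like factors, Psme4 to 0.26 with quantile normalization, and Psmd4, Psmd11 and Psme4 to 0.22, 0.18 and 0.0860 with scaling to the CD3 chains and Trdc. Leaving out a library gave -0.0020 to 0.11 for Psmb6, -0.0323 to 0.0174 for Psmd4 and -0.10 to 0.0032 for Psme4. The causes were not tested. With 3 libraries per group and rough depth, changes of low genes such as Psme4 and Psma8 are poorly resolved. Genes that share sequence or overlap another gene carry an uncertainty that FPKM cannot settle. Among them are Psme2, Psme2b, Psma3, Psma4, Psma5, Psmb3, Psmb5, Psmc1, Psmd2, Psmb7, Psmc3, Psmd13 and Psmc3ip.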
